A study of Mus musculus with 4 samples.

Results

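The genes described here are targets of hypoxia-inducible factor (HIF) that lie outside glycolysis and outside the oxygen sensor itself. The list holds 34 genes of 27573 gene names on the array, matched through the name, the accession or an older synonym of 58 probes. The rule that names them uses no measured value, though the list was proposed with earlier results of these data known. Of the 34 genes, 32 could be tested, with 52 probes above the filter on dim signal. Zfp395, a zinc finger protein, and Nos2, the inducible nitric oxide synthase, had 1 probe each, and neither was called well above background in any Th3 or control sample.

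Kidney RNA of Th3 mice was set against kidney RNA of control mice on 4 two-colour Agilent arrays, each with 1 Th3 and 1 control sample. Th3 is a model of beta-thalassemia, an inherited anaemia, in which both adult beta-globin genes, beta-major and beta-minor, are deleted. Cy5 labelled the Th3 sample on arrays 1 and 2 and the control sample on arrays 3 and 4, so dye orientation and pair of arrays cannot be told apart. Age, sex, background strain and the number of deleted chromosomes are not given in the sources used here, nor is it stated that samples are separate animals, so p-values may measure technical spread only. As a check of the labels, the brightest beta-globin probe (Hbb-b1 in the files, now Hbb-bt) gave 8.48% of the control level. Its log2 ratio of Th3 over control was -3.56 ± 0.48 (SD, n = 4, adjusted p = 2.7e-06).

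HIF is a transcription factor made of an oxygen-labile alpha subunit and a stable partner. When oxygen is plentiful, prolyl hydroxylases mark the alpha subunit for destruction through the von Hippel-Lindau protein, and when oxygen falls it persists and binds short ACGTG or GCGTG motifs near its target genes. Beside glycolytic enzymes, these targets include proteins that remove mitochondria, enzymes that modify and crosslink collagen, histone demethylases, transcriptional feedback regulators, brakes on growth signalling and secreted peptides. In the kidney, interstitial cells use the same system to control erythropoietin, the hormone that drives red cell formation.

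The start-site regions of the most changed genes show where such motifs lie. RefSeq promoter windows (build GRCm38.p6, the 250 bases before a start) were given for 22 of the 34 genes. The 5 printed first belong to the called genes with the largest increases among those with a window. The last 2, Fam162a and P4ha2, are genes that were not called and hold several motifs. Each is written 5′ to 3′ on the strand of the gene, and capitals mark ACGTG or GCGTG on either strand, so that a match on the opposite strand reads CACGT or CACGC. Matches that overlap form 1 stretch of capitals.
Ankrd37, minus strand, chr8:45999851-46000100: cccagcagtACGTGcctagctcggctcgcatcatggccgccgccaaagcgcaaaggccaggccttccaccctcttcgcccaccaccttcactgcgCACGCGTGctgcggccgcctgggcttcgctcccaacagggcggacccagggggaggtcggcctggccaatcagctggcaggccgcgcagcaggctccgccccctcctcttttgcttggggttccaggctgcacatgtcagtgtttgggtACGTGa
Bnip3, minus strand, chr7:138909507-138909756: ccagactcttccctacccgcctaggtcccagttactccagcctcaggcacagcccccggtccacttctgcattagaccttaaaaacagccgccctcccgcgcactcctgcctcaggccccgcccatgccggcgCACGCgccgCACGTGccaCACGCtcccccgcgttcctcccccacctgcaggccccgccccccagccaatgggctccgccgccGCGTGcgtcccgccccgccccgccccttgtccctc
Ddit4, minus strand, chr10:59951771-59952020: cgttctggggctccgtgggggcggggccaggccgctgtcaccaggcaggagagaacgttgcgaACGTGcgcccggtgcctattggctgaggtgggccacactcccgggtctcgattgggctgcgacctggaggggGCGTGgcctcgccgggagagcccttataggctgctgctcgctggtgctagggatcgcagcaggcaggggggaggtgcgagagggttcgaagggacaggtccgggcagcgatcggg
Adm, plus strand, chr7:110627407-110627656: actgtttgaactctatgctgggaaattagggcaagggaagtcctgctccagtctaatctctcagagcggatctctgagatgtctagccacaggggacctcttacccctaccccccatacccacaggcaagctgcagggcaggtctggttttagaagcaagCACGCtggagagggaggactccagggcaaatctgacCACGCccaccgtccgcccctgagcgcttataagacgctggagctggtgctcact
Ppp1r3c, minus strand, chr19:36736605-36736854: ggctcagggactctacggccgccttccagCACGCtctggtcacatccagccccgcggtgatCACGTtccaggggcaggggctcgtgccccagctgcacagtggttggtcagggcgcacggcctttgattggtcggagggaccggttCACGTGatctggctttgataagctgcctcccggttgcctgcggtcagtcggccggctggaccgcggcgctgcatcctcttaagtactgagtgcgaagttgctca
Fam162a, minus strand, chr16:36071562-36071811: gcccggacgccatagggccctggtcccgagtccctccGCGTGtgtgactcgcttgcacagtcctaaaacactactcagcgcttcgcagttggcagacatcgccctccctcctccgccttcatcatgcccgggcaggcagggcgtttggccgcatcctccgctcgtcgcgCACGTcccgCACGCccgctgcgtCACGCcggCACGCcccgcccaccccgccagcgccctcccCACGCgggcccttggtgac
P4ha2, plus strand, chr11:54100674-54100923: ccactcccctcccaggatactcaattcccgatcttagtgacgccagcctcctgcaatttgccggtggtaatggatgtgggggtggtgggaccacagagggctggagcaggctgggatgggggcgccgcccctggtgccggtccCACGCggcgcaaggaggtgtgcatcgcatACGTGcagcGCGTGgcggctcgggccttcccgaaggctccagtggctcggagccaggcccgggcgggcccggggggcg

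A motif of either form stood in at least 1 window of 20 of the 22 genes (90.9%), against 41.5% of 27025 genes in the whole promoter table. The windows of these genes were rich in CG, with a median of 21.5 CG dinucleotides against 6.0 over all windows. Among windows with at least 20 CG, a bound chosen after the values were seen, the share was 90.0% of 20 windows of the listed genes and 70.4% of 5896 windows overall. The stricter form ACGTG was found for 15 of the 22 genes and for 18.5% of all genes. A match was present for 11 of 13 genes called higher and for 9 of 9 genes not called. The gene that fell, Tgfb3, had no window. The 2 genes without a match, Mif and Vldlr, were both called higher. These counts describe letters in a window and were not tested.

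Of the 32 genes tested, 18 rose and 1 fell in Th3 kidney, and 13 did not pass the test. A call is an adjusted p under 0.05 in limma's moderated test over 17628 genes. Over all genes, 10.9% were called higher and 10.6% lower. The median log2 ratio of Th3 over control was 0.33 over the 32 genes and 0.00 over all genes tested. For 14 of the 32 genes all 4 Th3 levels lay above all 4 control levels, a pattern shown by 11.4% of all genes. For 1, Tgfb3, all Th3 levels lay below all control levels, as they did for 9.6% of all genes. By the normexp-corrected signals, Ankrd37 and Bnip3 were called with a change of at least 2-fold, both higher. Of all 17628 genes, 52 were called and at least 2-fold higher by these signals. Lox, Ppp1r3c and Stc1 also reached 2-fold with Agilent's processed signals, and Lox and Ppp1r3c with the authors' deposited ratios. The count over all genes is not given for those sources.

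**Figure D1:**
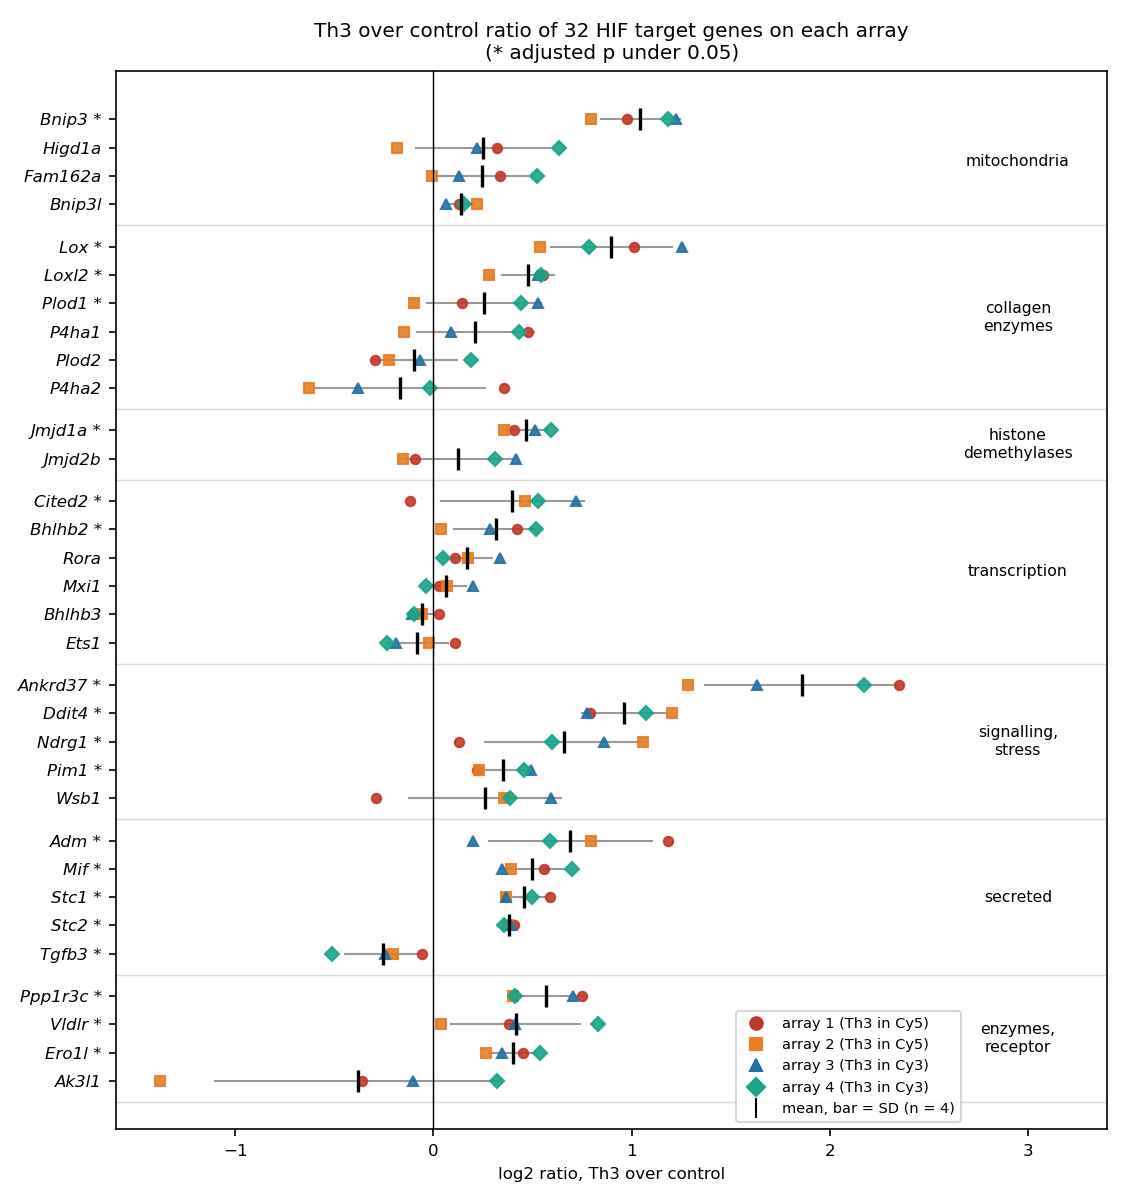
Log2 ratio of Th3 over control for the 32 genes tested, grouped by role. Points are the 4 arrays, black ticks the mean and grey bars the SD (n = 4), and an asterisk marks an adjusted p under 0.05. Ankrd37 lies farthest to the right with a mean of 1.86, and Tgfb3 is the 1 called gene to the left of 0.

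Among the 5 genes of signalling and stress responses, 4 rose and 1 did not pass, with a median log2 ratio of 0.66. Ankrd37, which encodes an ankyrin repeat protein, had log2 intensities of 10.56, 9.96, 10.06 and 10.63 in the Th3 samples of arrays 1 to 4 and of 8.21, 8.67, 8.43 and 8.46 in the control samples. Every Th3 sample was higher than every control sample, and the nearest were 1.28 apart. Ankrd37 rose 3.63-fold (log2 1.86 ± 0.49, adjusted p = 0.00192), the largest increase among the 32 genes by these signals. With Agilent's processed signals Lox (2.29) lay above Ankrd37 (2.16). The probe is annotated to chromosome 8, from 47495867 to 47495926, in mm8, the mouse build of the array annotation.

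Ddit4, an inhibitor of the growth kinase complex mTORC1 that is induced by many stresses, stood at 14.34, 14.53, 14.59 and 15.00 in Th3 and at 13.55, 13.33, 13.81 and 13.92 in control samples. The groups did not overlap. Ddit4 rose 1.95-fold (log2 0.96 ± 0.21, adjusted p = 0.00189), by a probe on chromosome 10 at 59345095 to 59345154.

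Ndrg1, a stress-responsive gene named for its repression by N-myc, differed widely between arrays. Its levels were 15.80, 16.44, 16.66 and 16.34 in Th3 and 15.67, 15.38, 15.80 and 15.74 in control samples. The lowest Th3 sample, on array 1, lay level with the highest control sample, so the groups overlapped. Array 1 gave a log2 ratio of 0.13, against 1.06, 0.86 and 0.60 on arrays 2, 3 and 4. Ndrg1 rose 1.58-fold (log2 0.66 ± 0.40, adjusted p = 0.0225, chromosome 15 at 66759164 to 66759223). The call was lost with the pair of arrays as a random block and without array 3 or array 4, where the adjusted p went up to 0.0917 at most, and the log2 ratio was 0.43 without array 2.

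Pim1, a serine/threonine kinase of growth signalling, rose by 0.35 ± 0.15 (adjusted p = 0.00697), and its groups did not overlap. Its signal was dim, and Agilent's own processed signals put it at 0.77. Wsb1, a substrate receptor of a ubiquitin ligase, had -0.29 on array 1 and between 0.36 and 0.59 on the other 3 arrays. Its mean of 0.26 ± 0.38 did not pass (adjusted p = 0.132), but without array 1 it was called higher (0.42).

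All 5 genes of secreted factors passed the test, 4 higher and 1 lower, with a median of 0.46. Adm encodes adrenomedullin, a vasodilator peptide. It stood at 9.67, 9.38, 9.21 and 9.44 in Th3 and at 8.48, 8.59, 9.01 and 8.85 in control samples. The groups did not overlap, but the ratio on array 3, 0.20, was far below the 1.18 on array 1. Adm rose 1.61-fold (log2 0.69 ± 0.41, adjusted p = 0.00556, chromosome 7 at 110420751 to 110420810).

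Both stanniocalcins, secreted glycoproteins linked to calcium and phosphate handling, rose. Stc2 was the most even gene of all 32, with ratios of 0.41, 0.38, 0.39 and 0.36 (mean 0.38 ± 0.02, adjusted p = 0.00564). Stc1 had ratios of 0.59, 0.37, 0.37 and 0.50 (mean 0.46 ± 0.11, adjusted p = 0.00595). Stc1 was dim, and its increase came to 1.23 by Agilent's processed signals and to 0.87 in the authors' deposited table. Its other 2 kept probes gave 0.23 ± 0.08, which was called, and 0.11 ± 0.09, which was not, and the mean over its probes was 0.27. Mif, a cytokine also known as macrophage migration inhibitory factor, rose by 0.50 ± 0.16 (adjusted p = 0.00735) with no overlap. Mif has near-identical copies in the mouse genome, which its probe may also detect.

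Tgfb3, a ligand of the TGF-beta family, moved the other way. Its levels were 8.13, 8.11, 8.11 and 8.15 in Th3 and 8.19, 8.31, 8.36 and 8.66 in control samples. The Th3 samples lay close together just below the lowest control sample, and the control sample of array 4 was the highest. Tgfb3 fell by 0.25 ± 0.19 on the log2 scale, to 83.8% of control (adjusted p = 0.0388, chromosome 12 at 86945957 to 86946016). The call did not hold without a dye term, with the pair as a random block, with median centring, or without array 2 or array 4 (adjusted p over all alternatives 0.0256 to 0.142). Agilent's processed signals put Tgfb3 at -0.39.

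**Figure D2:**
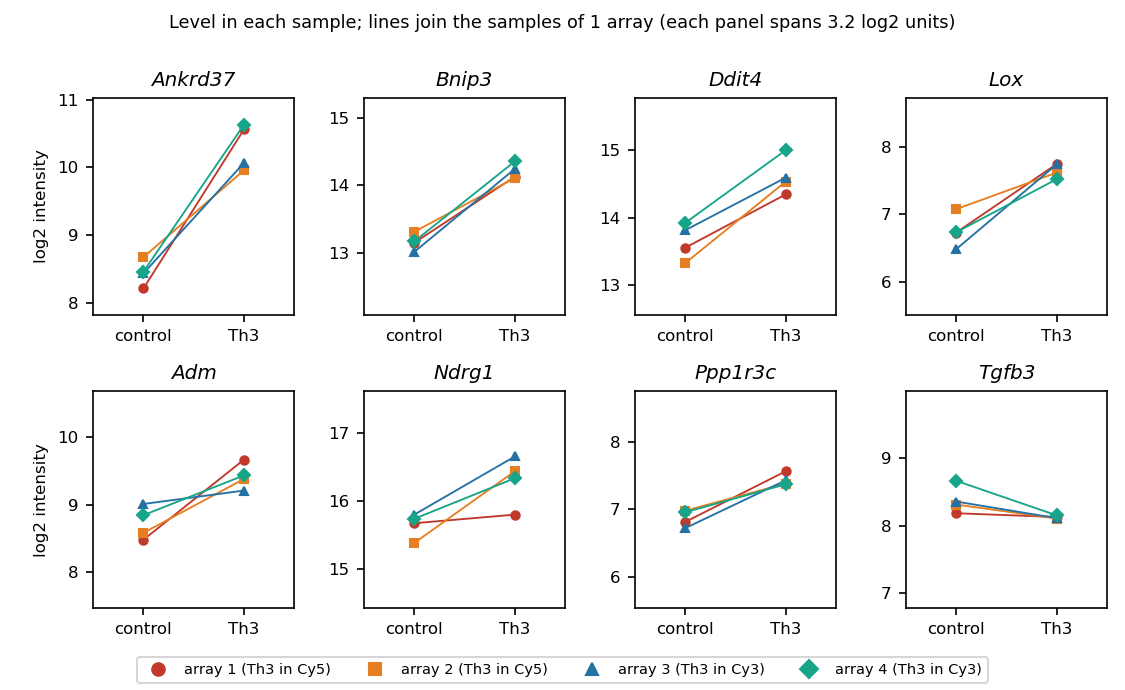
Log2 intensity of 8 genes in each sample, with a line joining the control and the Th3 sample of 1 array; each panel spans the same number of log2 units. Ankrd37, Bnip3, Ddit4, Lox, Adm and Ppp1r3c rise on every array without overlap of the groups, Ndrg1 rises little on array 1, and Tgfb3 slopes down.

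Of the 4 mitochondrial genes, 1 rose and 3 did not pass (median 0.25). Bnip3, a receptor in the outer mitochondrial membrane that targets mitochondria for autophagy, stood at 14.13, 14.11, 14.24 and 14.36 in Th3 and at 13.15, 13.31, 13.02 and 13.17 in control samples. The groups were 0.80 apart at their nearest. Bnip3 rose 2.06-fold (log2 1.05 ± 0.20) and had the smallest adjusted p of the 32 genes, 0.000445 (chromosome 7 at 138729737 to 138729796). Its close relative Bnip3l, also called Nix, a mitophagy receptor of maturing red cells, had a log2 ratio of 0.14 ± 0.07 (95% confidence interval 0.01 to 0.27, adjusted p = 0.113). Those 2 intervals did not meet, since that of Bnip3 ran from 0.91 to 1.18, but the difference between the genes was not tested.

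Fam162a, a mitochondrial protein linked to hypoxic cell death, had ratios from -0.01 on array 2 to 0.52 on array 4 (mean 0.25 ± 0.23, adjusted p = 0.0967). Higd1a, an inner membrane protein associated with the respiratory chain, had ratios from -0.19 on array 2 to 0.63 on array 4 (mean 0.25 ± 0.34, adjusted p = 0.139). Both passed without array 2 and with median centring, and Higd1a also with the mean of its probes (0.43), as did Bnip3l (0.21). The second probe of Higd1a gave 0.61 ± 0.37 and passed over all probes (adjusted p = 0.0141), so its probes differed in call but not in sign.

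Among the 6 genes of collagen modification, 3 rose and 3 did not pass (median 0.23). The genes that rose included both crosslinking oxidases. Lox, the lysyl oxidase that crosslinks collagen and elastin, stood at 7.75, 7.62, 7.74 and 7.52 in Th3 and at 6.73, 7.08, 6.49 and 6.74 in control samples. The groups did not overlap, and the Th3 samples lay closer together than the control samples. Lox rose 1.86-fold (log2 0.90 ± 0.31, adjusted p = 0.00384). It was dim, and its increase came to 2.29 with Agilent's processed signals and 1.59 in the authors' deposited table.

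Its relative Loxl2 rose by 0.48 ± 0.13 (adjusted p = 0.00558). Each Th3 sample of Loxl2 was above the control sample of its own array, but the groups overlapped, since arrays 1 and 2 were brighter in both channels. The other probe of Loxl2 gave 0.18 ± 0.08 and was not called.

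The hydroxylases of collagen did not move as a group. Plod1, a lysyl hydroxylase, had ratios of 0.15 and -0.10 on arrays 1 and 2 and of 0.53 and 0.44 on arrays 3 and 4. Its mean of 0.26 ± 0.29 passed (adjusted p = 0.0317), but not without a dye term, with the pair as a random block, without background correction, with Agilent's processed signals, or without array 1, 3 or 4 (adjusted p over all alternatives 0.0236 to 0.219). Plod2, the lysyl hydroxylase of collagen telopeptides, had -0.10 ± 0.22 (adjusted p = 0.313). The prolyl hydroxylase subunits P4ha1 and P4ha2 had 0.21 ± 0.30 and -0.17 ± 0.43 (adjusted p = 0.222 and 0.481). P4ha1 was called higher without array 2 (0.37), and P4ha2 lower without array 1 (-0.41). The 95% interval of P4ha2 ran from -0.54 to 0.20, which leaves room for a moderate change either way.

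Of the 2 histone demethylases, Jmjd1a (now Kdm3a) rose on every array, with ratios of 0.41, 0.36, 0.51 and 0.59 (mean 0.47 ± 0.11, adjusted p = 0.00334). All 3 of its probes were called higher, and its Th3 and control levels did not overlap. Jmjd2b (now Kdm4b) had ratios of -0.09 and -0.15 on arrays 1 and 2 and of 0.42 and 0.31 on arrays 3 and 4, and its mean of 0.12 ± 0.29 did not pass (adjusted p = 0.155). The dye term of Jmjd2b, which measures the difference between the pairs of arrays, did not pass either (adjusted p = 0.103).

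Of the 6 transcription factors tested, 2 rose and 4 did not pass, with a median of 0.12. Cited2, which limits HIF by competing for its coactivator, had ratios of -0.12, 0.46, 0.72 and 0.53 (mean 0.40 ± 0.36, adjusted p = 0.0337). Its other 3 probes gave 0.11 ± 0.16, 0.10 ± 0.16 and 0.09 ± 0.19 and were not called. Bhlhb2 (now Bhlhe40), a repressor tied to the circadian clock, had 0.32 ± 0.21 (adjusted p = 0.0369). Both had overlapping groups. Both calls were lost with Agilent's processed signals, without the filter on dim probes, without a dye term, with the pair as a random block and without array 3 or array 4. Cited2 also lost its call without array 2 and with the mean of its probes (0.17), and Bhlhb2 without array 1 and with the authors' deposited ratios. Adjusted p reached 0.144 for Cited2 and 0.143 for Bhlhb2.

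The partner of Bhlhb2, Bhlhb3 (now Bhlhe41), had -0.06 ± 0.06 (adjusted p = 0.473), with a probe well above background on 3 of 4 control arrays. With Agilent's processed signals it had -0.49, which did not pass. Mxi1, an antagonist of Myc, had 0.06 ± 0.10, and the nuclear receptor gene Rora had 0.17 ± 0.13 (adjusted p = 0.496 and 0.119), and without array 4 Rora was called higher (0.24). Ets1, a transcription factor of endothelium and lymphocytes, had -0.08 ± 0.16 by its brightest probe (adjusted p = 0.312). Another Ets1 probe, at -0.29 ± 0.13, passed over all probes (adjusted p = 0.0154).

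Of the 4 metabolic enzymes and receptors tested, 3 rose (median 0.41). Ppp1r3c, the subunit that directs protein phosphatase to glycogen, stood at 7.56, 7.38, 7.43 and 7.37 in Th3 and at 6.81, 6.98, 6.72 and 6.96 in control samples. The groups did not overlap. Ppp1r3c rose 1.48-fold (log2 0.57 ± 0.19, adjusted p = 0.00659, chromosome 19 at 36797111 to 36797170). Its other probe, at 0.02 ± 0.06, was well above background in 0 Th3 and 0 control samples and was not tested. The increase came to 1.67 with Agilent's processed signals and 1.16 in the authors' deposited table.

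Ero1l (now Ero1a), the oxidase that helps form disulfide bonds in the endoplasmic reticulum, rose by 0.40 ± 0.12 (adjusted p = 0.00866), and both of its probes were called higher. Vldlr, a lipoprotein receptor, rose by 0.42 ± 0.32 (adjusted p = 0.0229), with ratios from 0.04 on array 2 to 0.83 on array 4. Its other probe gave 0.06 ± 0.15. The call of Vldlr was lost with Agilent's processed signals, without a dye term, with the pair as a random block, without array 4, and with the mean of its probes, where the log2 ratio was 0.24 (adjusted p over all alternatives 0.0016 to 0.107). Ak3l1 (now Ak4), a mitochondrial adenylate kinase, was the most scattered of the 32 genes, with ratios of -0.36, -1.38, -0.10 and 0.32. Its mean of -0.38 ± 0.72 did not pass (adjusted p = 0.142), and its control sample of array 2 stood highest, at 11.67. Without array 1 it was called lower (-0.64).

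Several probes were kept for 13 of the 32 genes. For 12 of these every kept probe had the sign of the brightest, and for 0 were probes called in opposite directions. The same shares over all genes with several probes are not given. Of the called genes with several kept probes, only 2, Jmjd1a and Ero1l, had every kept probe called. Loxl2, Cited2, Stc1 and Vldlr each had kept probes that were not called. Over all kept probes of the array, 9.27% were called higher and 8.92% lower. Rora had kept probes of both signs, with its dimmest kept probe at -0.06 ± 0.09.

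**Figure D3:**
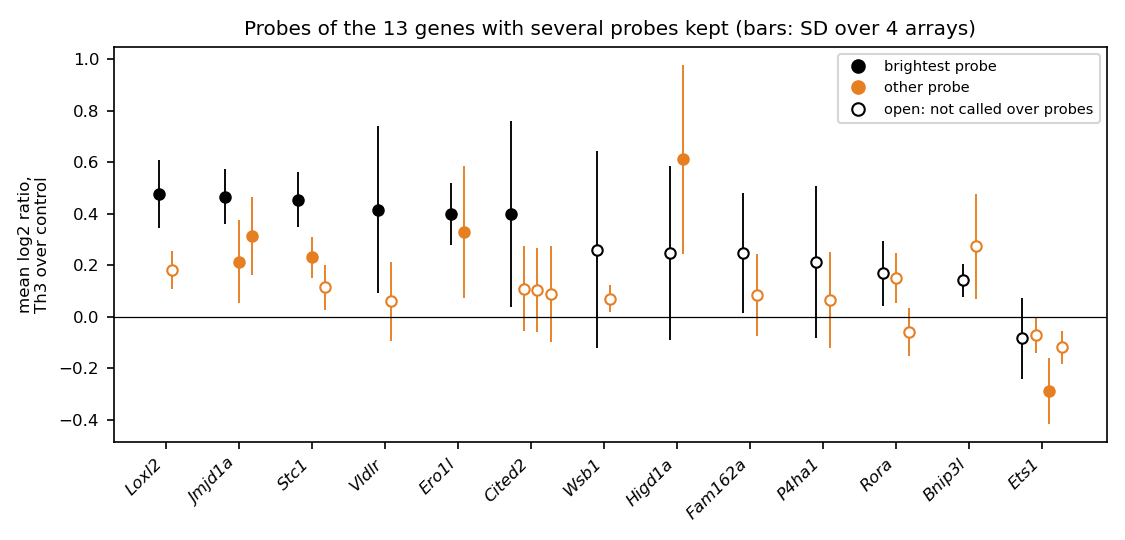
Mean log2 ratio of Th3 over control for every kept probe of the 13 genes with several, with bars for the SD over 4 arrays. Black points are the brightest probe of a gene and orange points the others, and open points did not pass over all probes. The other probes of Cited2 and Vldlr lie near 0, while all 3 of Jmjd1a are filled and above 0.

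The size of the increase of some dim genes differed between the sources of the signals. For the genes with bright probes, such as Bnip3, Ddit4, Ndrg1 and Mif, the normexp-corrected signals, Agilent's processed signals and the authors' deposited ratios gave nearly the same means. For Bnip3 these were 1.05, 1.05 and 1.05. For Lox, Ppp1r3c, Stc1 and Pim1 the ratio was larger with both other sources. Leaving out background correction alone moved them less, to 1.04 for Lox, 0.73 for Ppp1r3c, 0.54 for Stc1 and 0.40 for Pim1. The other sources differ in more than background, and the cause of the larger ratios was not tested. Every alternative kept the direction of all 19 called genes.

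**Figure D4:**
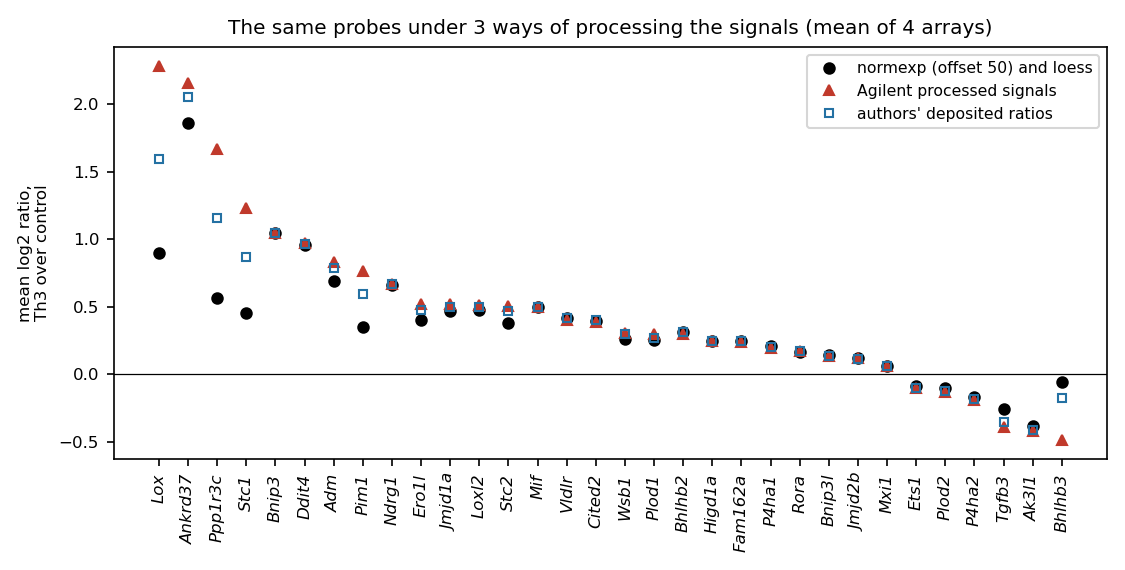
Mean log2 ratio of Th3 over control over 4 arrays for the 32 genes by the same probes, from normexp and loess (black), Agilent's processed signals (red) and the authors' deposited ratios (blue). Lox lies at 0.90, 2.29 and 1.59, while the 3 marks of Bnip3 coincide.

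The mean ratios of the pairs of arrays were correlated across the listed genes, though single genes differed between pairs. Adm had 0.99 in the first pair and 0.39 in the other, and Plod1 0.03 and 0.49. The 32 genes had a median log2 ratio of 0.19 in the first pair (arrays 1 and 2) and of 0.43 in the other (arrays 3 and 4). Across the 32 genes, the means of the pairs had a Pearson correlation of 0.81, against 0.55 over all genes. Ankrd37 lay farthest out, at 1.82 in the first pair and 1.90 in the other, and the correlation without it was not computed. Genes are not independent replicates, and each pair shares its dye orientation. The dye term passed for 0 of the 32 genes in limma's test and for 0.993% of all genes. At an unadjusted p under 0.05 it stood for 7 of the 32, against 17.6% of all genes.

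The rest of the HIF pathway is given for 56 other genes. Of 23 genes of glucose uptake, glycolysis and lactate export, 16 were higher and 1 lower, with a median of 0.33. Slc16a3, a lactate exporter, rose by 1.51 ± 0.59 (adjusted p = 0.00582), Ldha, lactate dehydrogenase A, rose by 0.82 ± 0.32 (0.00412), and Pfkfb4, a regulator of glycolytic flux, fell by 0.31 ± 0.18 (0.0153). Of 17 genes of vessels, pH and iron, 7 were higher and 0 lower (median 0.13), with the largest increases in Hmox1, the haem oxygenase (1.08 ± 0.38, adjusted p = 0.00521), and Car9, a carbonic anhydrase (0.94 ± 0.23, 0.00192). Of 16 genes of HIF and its regulators, 4 were higher and 1 lower (median -0.04). Epo, erythropoietin, rose by 1.38 ± 0.27 (adjusted p = 0.000993) and by 2.17 with Agilent's processed signals. Egln3, a HIF prolyl hydroxylase that is itself a HIF target, rose by 1.05 ± 0.35 (0.00437). Siah2, a ubiquitin ligase for prolyl hydroxylases, fell by 0.42 ± 0.16 (0.0101). No test compared these lists with each other.

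Markers of the tissue and of cells around it also differed between the groups. In whole tissue, fewer cells of a type and less RNA per cell cannot be told apart. Kidney markers of the proximal tubule, loop of Henle, distal tubule, collecting duct and podocytes were all detected. Of 6 collecting duct markers 1, Aqp3, was higher (0.69 ± 0.15), and of 4 distal tubule markers 1, Pvalb, was lower (-0.45 ± 0.22). No marker of the loop of Henle or of podocytes was called for the Th3 term, but the loop of Henle markers differed between pairs of arrays. Their summed ratio was 0.27 and 0.17 on arrays 1 and 2 and -0.41 and -0.56 on arrays 3 and 4. Umod had ratios of 0.43, 0.28, -0.68 and -0.95 on arrays 1 to 4. Its dye term passed in limma's test (adjusted p = 0.0388), and that of the other loop of Henle markers did not. Of 7 adrenal markers 2 were tested and 0 called. Of 7 proximal tubule markers 5 were lower (median -0.21), with summed intensities of 192898 to 234179 in Th3 and 237663 to 255144 in control samples. Of 7 leukocyte markers tested 5 were lower (median -0.48), summing to 2871 to 4065 in Th3 and 4491 to 6520 in control, while Itgam and Cd79a were not well above background. Of 4 brown fat markers tested 3 were lower, led by Ucp1 at -3.40 ± 0.93. The sums of the 4 were 10259 to 16917 in Th3 and 12001 to 48618 in control, and Elovl3 was not tested. Of 6 adipocyte markers 2 were higher (median 0.72), with sums of 73414 to 100002 in Th3 and 34209 to 106393 in control, and Lep was not well above background. The summed adipocyte ratio was 0.49, 1.40, 1.06 and -0.54 on arrays 1 to 4.

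Red cell markers were higher for 5 of 7 genes (median 0.39), with sums of 4049 to 5836 in Th3 and 3102 to 5374 in control samples. Among 8 stromal markers 2 were higher, Rgs5 of pericytes by 1.40 ± 0.08 and Pdgfrb by 0.36 ± 0.10. A further 2, the collagens Col3a1 (-0.99 ± 0.23) and Col1a1 (-0.29 ± 0.23), were lower while Lox and Loxl2 were higher. Of 7 endothelial markers 0 were called in limma's test, and 1, Emcn, had an unadjusted p under 0.05. The number of markers called moved with the processing. Over the alternatives it went from 1 to 5 for the proximal tubule (2 with median centring, 3 with Agilent's processed signals), from 2 to 5 for leukocytes, from 1 to 3 for brown fat, from 1 to 5 for adipocytes and from 2 to 7 for red cells. The part of these markers in the results for HIF targets was not tested.

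**Figure D5:**
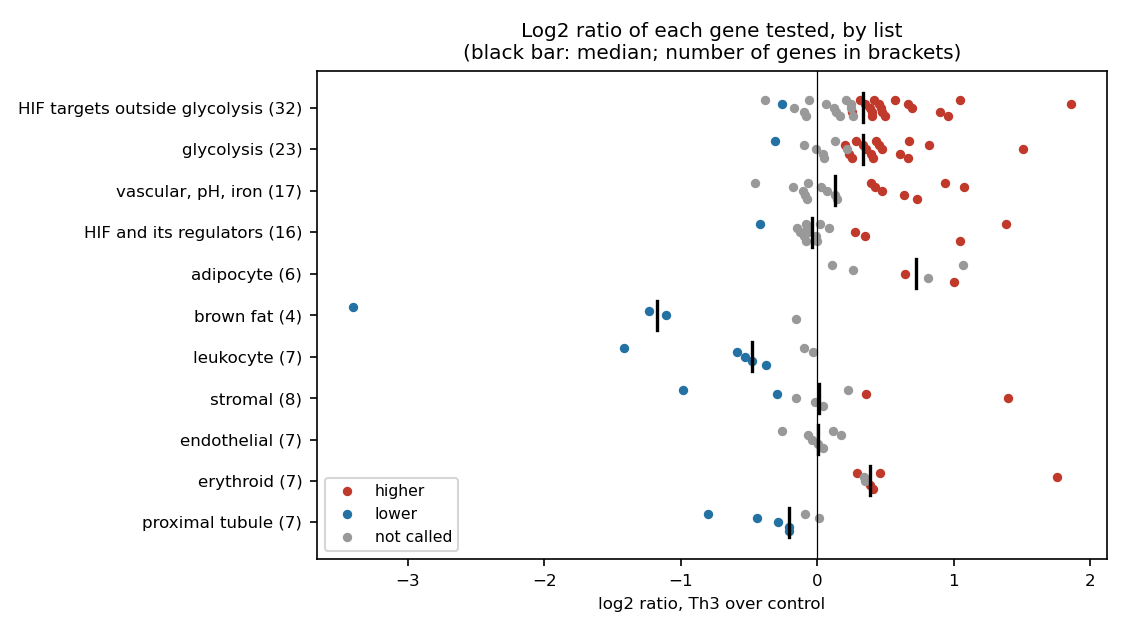
Log2 ratio of Th3 over control for each tested gene of the HIF lists and of 7 marker lists, with the number of genes in brackets and the median as a black bar. Red points were called higher, blue lower and grey neither. The medians of the HIF targets outside glycolysis and of the glycolytic list lie at 0.33, that of brown fat at -1.17.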

How the data were processed

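Each array compared 1 Th3 with 1 control kidney sample, and the 4 arrays form 1 group of ratios. Per the file headers, Agilent Feature Extraction 9.5.3.1 wrote the scanner files (design 014868, annotation on mouse build mm8). Per the file headers, the mean and local background intensities are not normalized, and the processed intensities were background-subtracted and dye-normalized by the scanner software. The log10 ratio of Cy5 over Cy3, per the file headers, was made from the processed signals and served to check direction. The authors deposited a table of log2 ratios (Th3 over control, each array); how these were normalized is not stated in the labels or headers. Its other columns were not used.

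In limma 3.58.1 (R 4.3.3, tables read by data.table at version 1.17.8) mean signals were corrected with normexp (offset 50), normalized within arrays by loess (span 0.3, 4 iterations) and averaged to 41174 probes. Kept were 26434 probes, each well above background on all 4 arrays in the Th3 or in the control channel, with a value on at least 3. Names came from a RefSeq gene table (assembly GRCm38.p6) by accession, current symbol or unique synonym, and each gene was represented by its brightest kept probe. Per gene, lmFit and eBayes fitted a Th3 term beside a dye term (2 residual and 4.52 prior degrees of freedom), and p-values were Benjamini-Hochberg adjusted over 17628 genes. Adjusted p-values of single probes are over all kept probes. A ± is the SD over arrays. Levels are log2 intensities per channel after loess and Aquantile scaling. The number of arrays limits the precision; the share of probes well above background per channel was 61.8% to 72.1%, with 0 saturated spots. All arrays share a slide and a scan date, so these could not be examined as batches. Th3 and control samples of 1 array are paired by the ratio itself.

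The members and gene lists were chosen with earlier results of these data known. Every member is accounted for. Values per sample are given for called members with a log2 ratio of at least 0.5 in size and for the called member that fell. From each pathway list up to 2 called genes with the largest increase and 2 with the largest decrease are named. Alternatives changed the background correction, the signals, the normalization, the filter, outlier spots, the dye term, the pair as a random block, empirical Bayes settings, the probe rule and the values (the authors' ratios), or left out 1 array. The pipeline was tested on simulated data.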

Additional observations from a re-analysis of the deposited data

Results flagged for a closer look

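Loxl2 had 1 array far from the others: its log2 ratio of 0.28 on array 2 stood apart from 0.55, 0.53 and 0.54 on arrays 1, 3 and 4, a gap of 0.909 of the whole range. Chance puts about 1 in 20 groups of 4 past the critical value of 0.829 used here. The mean ratio of Jmjd2b was 0.486 higher on arrays 3 and 4 than on arrays 1 and 2, with every array of 1 pair below 0 and every array of the other above it; the dye term gave an adjusted p of 0.103.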

How the results depend on the processing

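Over 15 alternatives the number of the 32 genes called higher went from 13 to 20 (18 as reported), with 14 to 20 when 1 array was left out. Genes called lower, 1 as reported, numbered 0 with median centring, without a dye term and with the pair of arrays as a random block, and 0 to 3 without 1 array. All genes called, 3793 as reported, numbered 1990 without a dye term, 1199 with the random block and 2571 to 3191 without 1 array. In the other HIF lists, 27 genes called higher became 13 with the block, and 2 called lower became 1 with median centring, without a dye term and with the block, and 2 to 4 without 1 array. The dye term, called for 175 genes, was called for 13 without background correction, 3 with Agilent's processed signals, 17 without the filter, 12743 with median centring and 0 to 500 without 1 array. The cause was not tested. Bnip3, Ankrd37, Ddit4, Lox, Loxl2, Jmjd1a, Pim1, Adm, Stc1, Stc2, Mif, Ero1l and Ppp1r3c were called under every alternative. The sizes of Lox, Ppp1r3c, Stc1, Pim1 and Tgfb3 differed by over 1.5 times between sources of the signals.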
